A study of Mus musculus and Sus scrofa with 12 samples.

Results

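Forkhead transcription factor genes were examined in the chromatin of the embryonic forelimb of mouse and pig. Members were the protein-coding genes of the RefSeq annotations of GRCm38 and Sscrofa11.1 whose symbol is FOX, a letter from A to S and a number, which gave 42 of 21774 mouse genes and 41 of 20660 pig genes. Of these, 41 had 1 record of the same symbol in each species, among 14946 such genes in all, and Foxd4 was found in the mouse only. The members were chosen by name and not by any measured value, although earlier results of these data were known at the time.

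Forkhead factors share a winged helix DNA-binding domain, which gives the family its name, and are sorted by sequence into subfamilies denoted by a letter. Some, such as the FOXO, FOXK and FOXM1 factors, act in most cell types, where they couple transcription to growth factor signalling and the cell cycle. Others, such as the FOXA, FOXC, FOXE and FOXF factors, direct the formation of particular organs, and in mesenchyme the FOXC and FOXF genes are known for their part in skeletal, vascular and gut development.

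Forelimbs of wild-type embryos were taken from mice at E11.5 and from pigs at day 23 (D23) of gestation, and no group carried a mutation or treatment. The histone modifications were mapped by ChIPmentation, in which a transposase adds sequencing adapters to antibody-bound chromatin: H3K4me3, found at promoters, H3K27ac, found at active promoters and enhancers, and H3K4me1, found at enhancers and promoter flanks. The labels list 12 samples, 2 for each species and modification, but for pig H3K4me1 the design text states 1 biological replicate with technical replicates. The values are 6 deposited lists of peak positions, each a consensus over replicates with no score, so no spread between animals could be computed and the depth of each sample is unknown.

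There were 18353 peaks of H3K4me3, 20875 of H3K27ac and 69962 of H3K4me1 in mouse, and in pig 18713, 27566 and 103373. Peaks differed in width between the lists, with medians of 3308 bp for mouse and 1679 bp for pig H3K4me3, and 2928 bp and 1164 bp for H3K27ac. The reads aligned were 50 bp long in both species, those of mouse and of pig H3K4me1 after cropping from a greater length. Of 5 genes of limb mesenchyme, H3K27ac lay at the start of all 5 in mouse and of 4 in pig, Prrx1 being the exception, while Pitx1 and Tbx4, which mark the hindlimb, lacked it in both species. Among 8 endothelial genes it was found at 2 in mouse and 1 in pig, among 4 genes of endoderm and liver at none in either species, and among 6 blood genes at 2 in mouse and at none of the 5 found in pig. Of 8 ectoderm genes 2 had it in mouse, as did 1 of the 6 found in pig. It lay at 2 of 6 muscle precursor genes in mouse and at 1 in pig. Of 4 neural crest and glia genes 1 had it in mouse and none in pig, and of 4 ciliated cell genes 2 had it in each species. The part that any cell type had in the marks of the forkhead genes was not tested, and in a whole limb a mark present in few cells cannot be told apart from a weak mark in many.

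The sequences on which the comparisons turn are shown first. Each of the first 6 lines gives the 250 bases before the annotated 5′ end of a mouse member, from the RefSeq promoter table for GRCm38, with every CG dinucleotide in capitals because CpG content is set beside the marks. Foxo3 (chr10:42276696-42276945, minus strand) and Foxo1 (chr3:52268087-52268336, plus strand) had H3K27ac in both species. Foxc1 (chr13:31806396-31806645, plus strand) had it in the mouse only, Foxf2 (chr13:31625566-31625815, plus strand) had H3K4me3 and H3K4me1 without it in both, and Foxr1 (chr9:44440869-44441118, minus strand) had no mark at its start in either. Foxp4 (chr17:47924633-47924882, minus strand) stands beside the stretch of Sscrofa11.1 that matches its start (chr7:36742147-36742396, plus strand), because the annotated pig start lies elsewhere. Foxo3 and Foxo1 came from a ranking by the number of distal H3K27ac peaks, in which Foxn3 and Foxp1 stood higher and are not shown. Foxc1, Foxf2, Foxr1 and Foxp4 were chosen for display after their values were seen.
mouse Foxo3: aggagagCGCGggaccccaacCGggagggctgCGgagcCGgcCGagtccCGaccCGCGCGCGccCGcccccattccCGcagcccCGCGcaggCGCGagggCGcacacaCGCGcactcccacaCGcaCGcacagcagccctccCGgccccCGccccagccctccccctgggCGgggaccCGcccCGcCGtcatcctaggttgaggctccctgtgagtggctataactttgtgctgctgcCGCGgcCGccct
mouse Foxo1: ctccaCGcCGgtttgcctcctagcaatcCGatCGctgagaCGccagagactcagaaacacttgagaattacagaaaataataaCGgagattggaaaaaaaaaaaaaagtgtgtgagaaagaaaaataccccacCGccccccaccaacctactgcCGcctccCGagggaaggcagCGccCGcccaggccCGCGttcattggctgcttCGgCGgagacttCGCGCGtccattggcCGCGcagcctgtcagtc
mouse Foxc1: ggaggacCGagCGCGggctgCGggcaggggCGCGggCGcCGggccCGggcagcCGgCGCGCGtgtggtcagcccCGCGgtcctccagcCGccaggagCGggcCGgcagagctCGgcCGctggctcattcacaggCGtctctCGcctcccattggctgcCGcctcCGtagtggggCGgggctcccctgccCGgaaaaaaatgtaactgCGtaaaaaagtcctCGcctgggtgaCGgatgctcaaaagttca
mouse Foxf2: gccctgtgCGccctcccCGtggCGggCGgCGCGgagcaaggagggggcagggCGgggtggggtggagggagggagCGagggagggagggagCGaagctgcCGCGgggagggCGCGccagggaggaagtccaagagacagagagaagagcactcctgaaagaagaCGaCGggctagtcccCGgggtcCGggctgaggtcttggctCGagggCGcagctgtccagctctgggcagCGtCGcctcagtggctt
mouse Foxr1: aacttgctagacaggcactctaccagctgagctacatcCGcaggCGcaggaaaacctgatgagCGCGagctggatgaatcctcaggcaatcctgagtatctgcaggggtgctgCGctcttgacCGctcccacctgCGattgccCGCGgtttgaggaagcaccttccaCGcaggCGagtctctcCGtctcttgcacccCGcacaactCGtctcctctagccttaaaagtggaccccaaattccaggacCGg
mouse Foxp4: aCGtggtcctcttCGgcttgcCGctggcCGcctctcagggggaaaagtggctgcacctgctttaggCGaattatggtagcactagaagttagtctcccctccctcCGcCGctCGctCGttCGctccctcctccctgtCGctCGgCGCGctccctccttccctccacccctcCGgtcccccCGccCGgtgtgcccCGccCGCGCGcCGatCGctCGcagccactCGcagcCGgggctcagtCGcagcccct
pig FOXP4: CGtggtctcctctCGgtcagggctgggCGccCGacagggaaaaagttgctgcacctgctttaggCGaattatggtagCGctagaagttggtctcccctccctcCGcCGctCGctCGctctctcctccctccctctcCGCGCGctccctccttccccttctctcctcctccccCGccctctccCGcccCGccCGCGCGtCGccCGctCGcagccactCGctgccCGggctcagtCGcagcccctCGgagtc

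The stretches held 31 CG dinucleotides at Foxo3, 20 at Foxo1, 29 at Foxc1, 21 at Foxf2 and 15 at Foxr1. The Foxp4 pair held 27 in mouse and 26 in pig, and 210 of 261 aligned columns were identical.

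A second pair of sequences comes from a distal H3K27ac peak whose nearest coding start was Foxd2, shown because it was among the few distal elements of members that carried H3K27ac in both species. The mouse stretch (GRCm38, chr4:114779317-114779556, plus strand) and its match in pig (Sscrofa11.1, chr6:163986001-163986240, plus strand) are given with the differing bases in capitals, and 232 of 240 columns were identical. This pair was also chosen after the values were seen.
mouse Foxd2 element: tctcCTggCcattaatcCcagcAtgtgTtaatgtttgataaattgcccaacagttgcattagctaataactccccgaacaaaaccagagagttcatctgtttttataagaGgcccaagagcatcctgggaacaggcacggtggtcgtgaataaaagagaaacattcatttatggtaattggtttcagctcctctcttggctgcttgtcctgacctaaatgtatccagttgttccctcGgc
pig FOXD2 element: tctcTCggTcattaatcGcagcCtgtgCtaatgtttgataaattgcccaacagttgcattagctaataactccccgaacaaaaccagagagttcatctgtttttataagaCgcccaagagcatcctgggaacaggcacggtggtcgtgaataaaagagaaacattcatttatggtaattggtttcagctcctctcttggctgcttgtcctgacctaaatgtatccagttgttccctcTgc

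The first comparison asked which forkhead genes were marked at their transcription start sites (TSSs). A modification was taken to mark a gene when at least 1 bp of a peak lay within 1 kb of an annotated TSS of that gene. It was called active with H3K27ac there, marked without H3K27ac when only H3K4me3 or H3K4me1 was found, and unmarked when none was. H3K4me3 was found at 32 of 42 mouse members, against 65.0% of all mouse coding genes, and at 33 of 41 pig members, against 64.9%. H3K27ac was found at 15 of 42 mouse members, against 41.6%, and at 13 of 41 pig members, against 46.7%. H3K4me1 lay at 28 mouse members, against 54.7%, and at 32 pig members, against 61.3%. The family thus had H3K4me3 and H3K4me1 in shares above those of all coding genes and H3K27ac in shares below them.

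Among genes with H3K4me3, H3K27ac was present at 15 of 32 forkhead genes in mouse, against 62.3% of all such genes, and at 13 of 33 in pig, against 69.4%. All 15 active mouse members and all 13 active pig members also had H3K4me3. Over all coding genes, H3K4me3 was present at 8815 of 9065 active genes in mouse and at 9305 of 9639 in pig. The combination of H3K4me3 and H3K4me1 without H3K27ac was found at 14 mouse members, against 17.4% of all genes, and at 19 pig members, against 16.2%. In total 20 mouse members were marked without H3K27ac, against 29.7%, and 23 pig members, against 28.8%. Unmarked were 7 mouse members, against 28.7%, and 5 pig members, against 24.6%. The mouse and pig annotations hold large families with no counterpart of the same symbol, so the shares over the 14946 same-symbol genes are a closer base: 52.1% of these were active and 88.4% had 1 or more marks in mouse, and 55.6% and 88.5% in pig. Over this base 15 of 41 members were active and 34 had 1 or more marks in mouse, and 13 and 36 in pig. The members' share with 1 or more marks was thus 82.9% in mouse and 87.8% in pig, not above that of the same-symbol genes. Shares of H3K4me3 and H3K4me1 taken singly were not computed on this base.

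**Figure D1:**
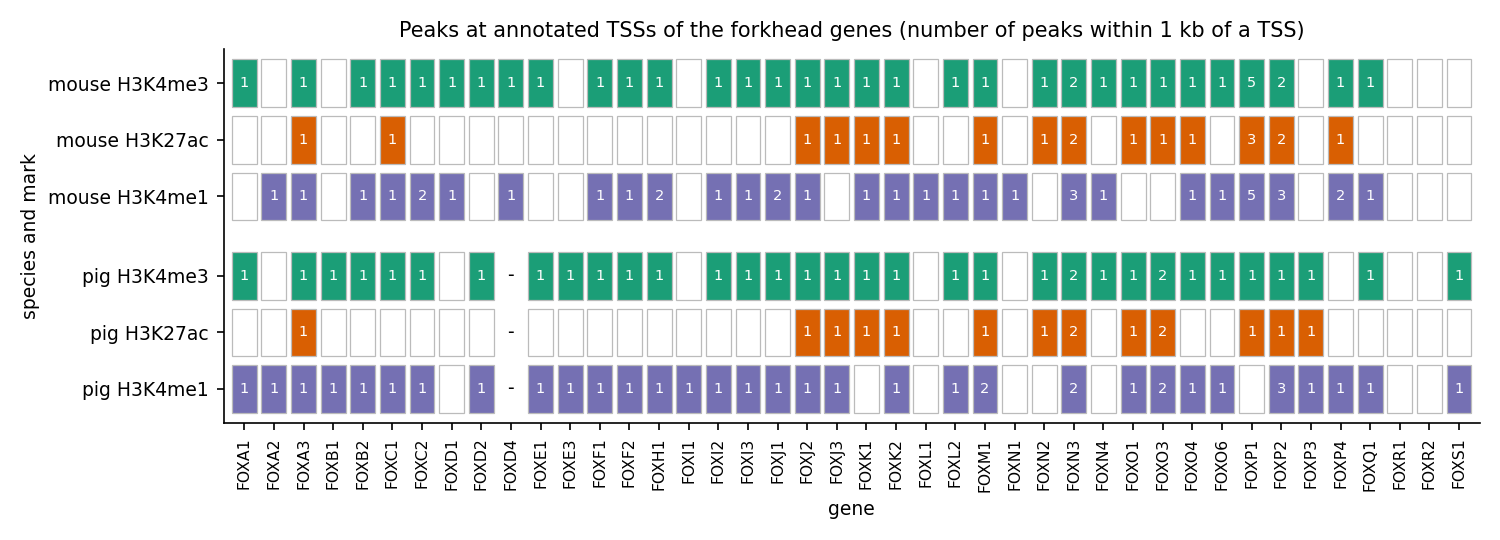
Columns are the forkhead genes and the rows are the 3 modifications in mouse and in pig; a filled square marks a gene with 1 or more peaks within 1 kb of an annotated TSS and holds the number of peaks, and a dash stands for a gene with no pig record. H3K4me3 fills 32 of 42 mouse and 33 of 41 pig columns, while H3K27ac fills 15 and 13, mostly from FOXJ2 to FOXP2.

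The state was the same in both species for 30 of 41 members, against 69.7% of same-symbol genes. Active in both were 12 members, against 42.5% of same-symbol genes, marked without H3K27ac in both were 16, against 20.7%, and unmarked in both were 2, against 6.47%. H3K27ac was absent from the TSSs of 25 of 41 members in both species, against 34.9%. The remaining 11 members differed in state, and no member that was marked without H3K27ac in mouse was active in pig, a change found at 12.1% of same-symbol genes.

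The FOXO genes encode targets of insulin and AKT signalling that act on metabolism, cell survival and cell cycle arrest. Foxo1 (mouse chr3:52268337-52350109, pig chr11:15317222-15410059) had 1 H3K4me3 peak of 3792 bp and 1 H3K27ac peak of 3878 bp over its start in mouse, and peaks of 3539 bp and 3329 bp in pig. Foxo3 (mouse chr10:42181845-42276695, pig chr1:74626673-74760323) had H3K4me3 over 4644 bp and H3K27ac over 4281 bp in mouse, and 2 peaks of each mark in pig, the wider of 3607 bp and 3005 bp. Neither gene had H3K4me1 at its start in mouse, and both had it in pig. Foxo6, a member best known from the brain, had H3K4me3 and H3K4me1 without H3K27ac in both species.

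Foxo4 was the FOXO gene whose state differed. In mouse its H3K4me3 peak was 2905 bp wide, and its H3K27ac peak of 1856 bp began 258 bp downstream of the 5′ end. In pig H3K4me3 spanned 2117 bp and H3K4me1 1178 bp, and the nearest H3K27ac peak lay 6.68 kb from the TSS, inside the gene (chrX:57139228-57140278).

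The FOXP genes encode repressors that form dimers and act in brain, lung, heart and blood. Foxp1 (mouse chr6:98925342-99522746, pig chr13:52346844-52974358) met the most peaks at its annotated starts of any mouse member: its 29 annotated TSSs met 5 H3K4me3, 3 H3K27ac and 5 H3K4me1 peaks. The pig gene, with 11 annotated TSSs, had 1 H3K4me3 and 1 H3K27ac peak, both of 3137 bp at the 5′ end, and no H3K4me1 there. Foxp2 likewise had 2 H3K4me3 peaks in mouse, of 4735 bp at its 5′ end and 3634 bp at an internal start 285 kb into the gene, each with H3K27ac of 4124 bp and 3699 bp. In pig FOXP2 had 1 H3K4me3 peak, of 3964 bp, with 2458 bp of H3K27ac.

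Foxp4 was active in mouse, with H3K4me3 over 4294 bp and H3K27ac over 3427 bp at its start, and had H3K4me1 alone at the only annotated start in pig (chr7:36760643-36793620). The sequence of the mouse start, however, matched the pig genome 18.2 kb from that annotated start, at 77.4% identity over 1020 bp, and the matched place carried both H3K4me3 and H3K27ac. Foxp3, the master regulator of regulatory T cells, was unmarked in mouse and active in pig. The pig H3K27ac peak there, of 1743 bp, also lay at the start of PPP1R3F, 35 bp from that of FOXP3, and in mouse the Ppp1r3f start bore H3K4me3 and H3K27ac 4.13 kb and 4.30 kb from Foxp3. The pig 5′ end of FOXP3 matched the mouse genome 5.31 kb from the Foxp3 TSS, where both of these marks were found.

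Of the forkhead genes tied to the cell cycle and growth, Foxm1, an activator of mitotic genes, was active in both species, with H3K27ac of 2390 bp in mouse and 1852 bp in pig. Its start lies 83 bp from that of Rhno1 in mouse and 69 bp in pig, so every H3K4me3 and H3K27ac peak at it was also counted for that gene. Foxk1 and Foxk2, repressors of autophagy genes among other roles, were active in both, with H3K27ac peaks of 2189 bp and 2616 bp in mouse and 2274 bp and 1674 bp in pig. Foxn2, Foxn3, Foxj2 and Foxj3 were active in both as well. In pig, the H3K27ac peak of 741 bp near the 5′ end of FOXN3 began 1828 bp downstream of it, and an internal start 175 kb into the gene had one of 2186 bp. At the 5′ end alone pig FOXN3 was marked without H3K27ac. Mouse Foxn3 also had 2 peaks: one of 3186 bp covered its 5′ end, and one of 2986 bp lay 170 kb into the gene and was shared with the predicted gene Gm51999.

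Foxa3, which acts in liver and other endoderm, was the only FOXA gene called active in both species, and the call rested on peaks that it shared with the neighbouring gene Sympk. The mouse H3K27ac peak ended 945 bp and the pig peak 734 bp short of the Foxa3 start. Across the family every H3K27ac peak was shared with the start of another coding gene at 3 of 15 active mouse members, against 22.8% of active genes, namely Foxa3, Foxj3 (with Frg2f1) and Foxm1. In pig this held for FOXA3, FOXM1 and FOXP3, 3 of 13, against 22.6%.

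The 16 members marked without H3K27ac in both species were Foxa1, Foxa2, Foxb2, Foxc2, Foxd2, Foxe1, Foxf1, Foxf2, Foxh1, Foxi2, Foxi3, Foxj1, Foxl2, Foxn4, Foxo6 and Foxq1. H3K4me3 was present in both species at 15 of them, all but Foxa2, and both H3K4me3 and H3K4me1 in both at 11. Neither count was made over all same-symbol genes marked without H3K27ac in both species. Foxe1, required for the thyroid and palate, had H3K4me3 over 4774 bp in mouse and 2203 bp in pig. Foxl2, of ovary and eyelid, had 3830 bp and 2907 bp, and Foxj1, which drives motile cilia, 3834 bp and 2005 bp. Foxa2, of endoderm and floor plate, had H3K4me1 alone, over 5501 bp in mouse and 4907 bp in pig. At Foxh1, a partner of SMAD proteins in Nodal signalling, the H3K4me3 peak was shared with Ppp1r16a, whose mouse start lies 29 bp away. The H3K4me3 peaks of mouse Foxa1 (with Ttc6), pig FOXC2 (with MTHFSD) and pig FOXN4 (with MYO1H) were shared as well. With peaks at another coding gene's TSS left out, these genes, and Foxh1 in both species, were unmarked.

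H3K4me1 lay differently at active and other members. A peak of it covered the 5′ end itself at 0 of 15 active mouse members, against 11.4% of active genes, and at 9 of 20 members marked without H3K27ac, against 34.4%. In pig it did so at 2 of 13, against 15.9%, and at 14 of 23, against 46.0%. In both annotations and all genes together the mark thus covered fewer active starts than starts without H3K27ac, and the members followed that order.

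A pair of clusters holds forkhead genes known from mesenchyme, of which Foxf1, Foxf2, Foxc2 and Foxl1 lacked H3K27ac at their starts in both species and Foxc1 lacked it in pig. In the cluster of Foxq1, Foxf2 and Foxc1 (mouse chr13:31558170-31810635, 252 kb, pig chr7:664360-840593, 176 kb) there were 4 H3K4me3 peaks in each species and 19 H3K4me1 peaks in mouse and 17 in pig. H3K27ac was found once in mouse, over 4880 bp at Foxc1, and not in pig. In the cluster of Foxf1, Foxc2 and Foxl1 (mouse chr8:121084386-121130644, 46.3 kb, pig chr6:2540748-2598122, 57.4 kb), which also holds Mthfsd, there were 3 H3K4me3 peaks in each species, 4 and 8 H3K4me1 peaks, and no H3K27ac peak in either. The nearest H3K27ac peak lay 120 kb from the Foxf1 start in mouse and 149 kb from it in pig. The long noncoding RNA gene Fendrr, which starts opposite Foxf1, had H3K4me3 and H3K4me1 at its start in mouse.

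**Figure D2:**
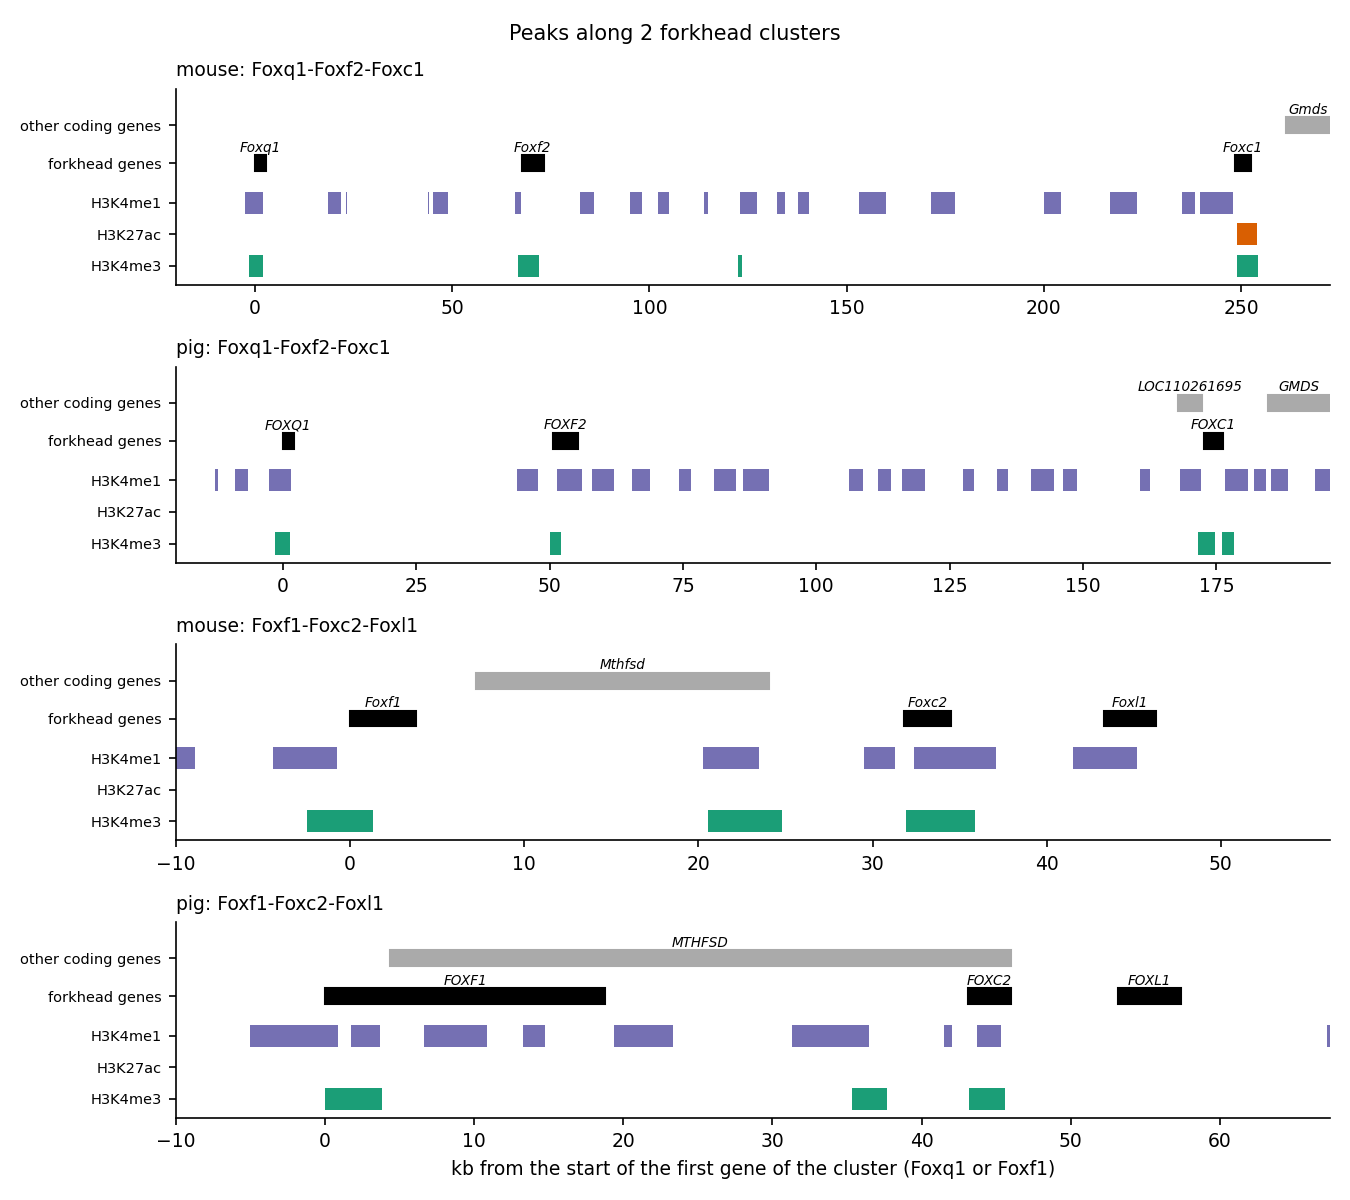
Each panel shows 1 cluster in 1 species, with the position in kb from the start of Foxq1 or Foxf1 on the horizontal axis, peaks of the 3 modifications as coloured bars and coding genes as black (forkhead) or grey (other) bars. H3K27ac appears once in the 4 panels, as the peak of 4880 bp at mouse Foxc1, while H3K4me1 forms 19 and 17 peaks across the Foxq1 cluster in mouse and pig.

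Foxc1, which acts in skeletal and vascular mesenchyme, was active in mouse and marked without H3K27ac in pig. Its H3K4me3 peak in mouse, of 5419 bp, was the widest of any member, began 410 bp downstream of the 5′ end and ran past the end of the gene, and the H3K27ac peak began 596 bp downstream. In pig H3K4me3 spanned 3314 bp and started 1221 bp upstream of the 5′ end, and the nearest H3K27ac peak was 144 kb away. The mouse call therefore depended on the window: with 0.5 kb on each side in place of 1 kb, mouse Foxc1 was marked without H3K27ac, as the pig gene was. The pig call rested on H3K4me3 and H3K4me1 peaks that also lay at the start of LOC110261695, 467 bp from that of FOXC1. With peaks at another coding gene's TSS left out, pig FOXC1 was unmarked.

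The other members whose state differed were low in marks in 1 species. Foxb1, of hindbrain and hypothalamus, and Foxe3, of the lens, were unmarked in mouse, where the nearest H3K4me1 peaks lay 7.70 kb and 5.53 kb from their starts. In pig they had H3K4me3 over 2951 bp and 1921 bp, each with H3K4me1. Foxi1, of inner ear and kidney, was unmarked in mouse, where the nearest peak of any of the 3 marks lay 37.7 kb away, and had H3K4me1 over 3243 bp in pig. Foxl1, of gut mesenchyme, had H3K4me1 over 3700 bp in mouse and no mark in pig. Foxn1, of thymus and hair, was unmarked in pig, and its mouse call rested on an H3K4me1 peak at an internal start, since at its 5′ end alone it was unmarked.

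Foxd1, of kidney stroma and retina, had H3K4me3 over 3820 bp and H3K4me1 over 6762 bp in mouse and was unmarked in pig. The mouse 5′ end matched the pig genome 2.38 kb from the annotated start, inside the pig gene record, and that place had H3K4me3 and H3K4me1. Foxs1, known from neural crest derivatives and perivascular cells, was unmarked in mouse and had H3K4me3 over 1625 bp at its annotated pig start. The mouse record spans 1.31 kb with 1 coding exon and the pig record 14.2 kb with 8, and the mouse 5′ end matched a place 12.9 kb from the pig 5′ end. That place had H3K27ac and H3K4me1, within an H3K27ac peak of 3519 bp (chr17:35521338-35524856) that met no annotated pig start. Foxr1 and Foxr2, known from germ cells and tumours, were unmarked in both species.

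The states were also read at the matching sequence in place of the annotated start. The 1 kb around the mouse 5′ end matched the pig locus for 39 of 41 members, at 67.1% to 91.4% identity, and for 34 of the 39 the match lay within 1 kb of an annotated pig TSS. The state at the mouse 5′ end equalled that at the matched pig place for 32 of the 39, and that of the annotated pig gene for 29. From pig to mouse 36 of 41 matched, 31 of them within 1 kb of an annotated TSS, and the state was equal for 29 of the 36, against 28 by the annotated gene. Matches of 5′ ends and the states there were not computed over all same-symbol genes, so no share stands beside these counts. The differences at Foxc1, Foxo4, Foxb1, Foxe3, Foxi1 and Foxl1 were also present at the matched places from mouse to pig. Foxs1 differed there too, but the matched pig place was active and not marked without H3K27ac. The differences at Foxp4, Foxd1, Foxp3 and Foxn1 were not present there, Foxn1 being unmarked at both its mouse 5′ end and the matched pig place.

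The second comparison concerned the width of H3K4me3. Each member with H3K4me3 was given its widest peak at a TSS and its percentile among all coding genes with H3K4me3 in that species, since peaks in the mouse list were wider. The median over members was 3780 bp in mouse (n = 32 genes), beside 3502 bp over all 14158 coding genes with H3K4me3, and 2324 bp in pig (n = 33 genes), beside 1913 bp over 13410. Of these members, 22 of 32 in mouse and 29 of 33 in pig were above the median of all such genes. In the widest 25.0% of genes were 9 of 32 mouse and 16 of 33 pig members.

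The 5 widest in mouse were Foxc1 at 5419 bp (97.9th percentile), Foxf2 at 5242 bp (97.3), Foxe1 at 4774 bp (94.4), Foxp2 at 4735 bp (94.0) and Foxo3 at 4644 bp (93.0). Of these, Foxf2 and Foxe1 had no H3K27ac at their start. The 5 widest in pig were FOXP2 at 3964 bp (99.3), FOXF1 at 3837 bp (99.0), FOXO3 at 3607 bp (98.2), FOXO1 at 3539 bp (97.9) and FOXK1 at 3522 bp (97.8), all active but FOXF1. FOXP2 and FOXO3 were on both lists. Active members had a median width of 3792 bp in mouse and 2324 bp in pig, and members marked without H3K27ac 3684 bp and 2298 bp, which were close to each other in each species. Over all coding genes the medians were 3594 bp and 3334 bp in mouse, and 1907 bp and 1929 bp in pig.

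Over the 29 members with H3K4me3 in both species, the percentiles had a Pearson correlation of 0.39 and a Spearman correlation of 0.42. Genes are not independent replicates, and the points share the 2 lists they come from, so this is a description. In both species 18 of the 29 were above the median of all genes, a count that was not made over all same-symbol genes. Foxi2, at the 9.51 percentile in mouse and the 95.6 in pig, and Foxn4, at 52.3 and 0.79, lay far from the trend, and the pig FOXN4 peak of 735 bp was shared with MYO1H.

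**Figure D3:**
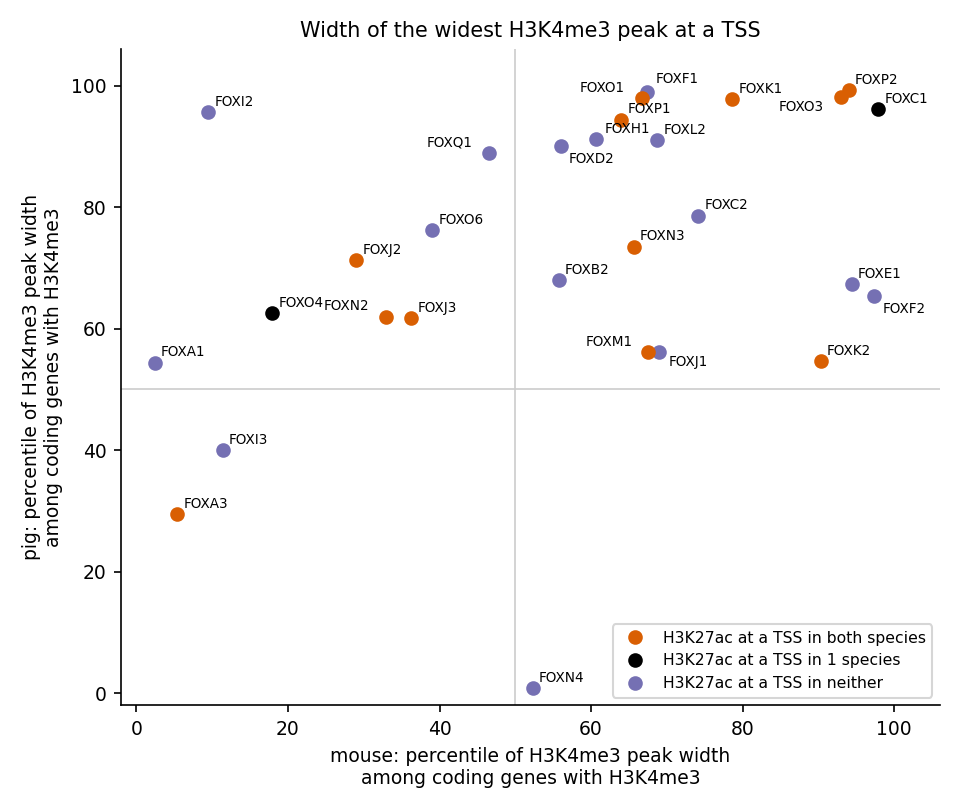
Points are the 29 forkhead genes with H3K4me3 in both species, placed by the percentile of their widest H3K4me3 peak among all coding genes with H3K4me3 in mouse (horizontal) and pig (vertical) and coloured by H3K27ac at a TSS; grey lines mark the median gene. The upper right field holds 18 genes, with Foxp2, Foxo3 and Foxc1 at its far corner, and genes with and without H3K27ac are mixed.

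Gene structure and base composition were set beside the states. Genes with 1 coding exon made up 14 of 42 mouse members, against 15.6% of coding genes, and 10 of 41 pig members, against 13.4%. They were 1 of 15 active mouse members (Foxc1), against 5.82% of active genes, and 9 of 20 members marked without H3K27ac, against 8.51%. In pig they were 0 of 13, against 5.08%, and 7 of 23, against 7.42%. The active members were also longer, with a median of 57.5 kb in mouse and 68.3 kb in pig, beside 3.51 kb and 3.96 kb for members marked without H3K27ac. Over all coding genes these medians were 26.5 kb and 33.0 kb for active genes and 20.2 kb and 16.5 kb for genes marked without H3K27ac.

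The ratio of observed to expected CpG over 500 bases on each side of the 5′ end had a median of 0.858 at active mouse members, 0.713 at those marked without H3K27ac and 0.394 at unmarked ones. In pig the medians were 0.920, 0.787 and 0.431. Over all coding genes they were 0.729, 0.560 and 0.168 in mouse and 0.757, 0.622 and 0.248 in pig, so the order was the same and each member median was above that of all genes. The states overlapped: the active members ranged from 0.597 to 1.17 in mouse, and those without H3K27ac from 0.192 to 0.993. The lowest value was 0.0453 at mouse Foxr2, which was unmarked, and the highest among unmarked members was 0.907 at pig FOXD1, whose matched start lay elsewhere.

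**Figure D4:**
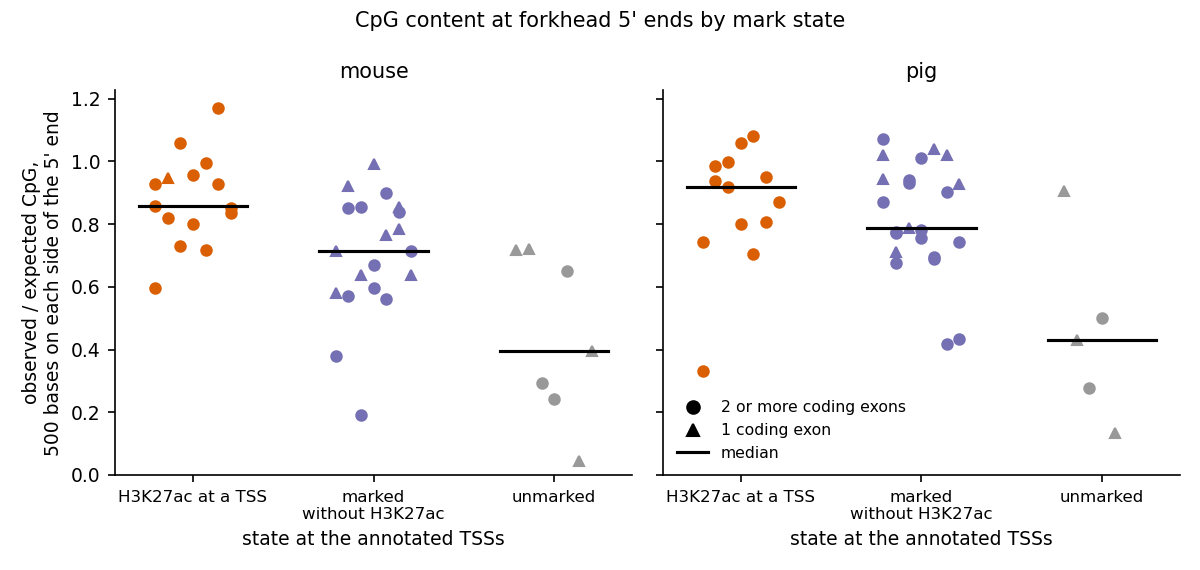
Each symbol is 1 forkhead gene, placed by the ratio of observed to expected CpG around its 5′ end (vertical axis) and by its state (horizontal axis), with triangles for genes with 1 coding exon and lines for medians. Medians fall from 0.858 to 0.713 to 0.394 in mouse and from 0.920 to 0.787 to 0.431 in pig, with overlap between the states, and triangles lie mostly among genes without H3K27ac.

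The third comparison concerned distal H3K27ac peaks, those farther than 1 kb from all annotated TSSs and clear of H3K4me3 peaks. Each was given to the coding gene with the closest TSS, up to 500 kb away, which is a rule of distance and not a link shown by the data. Members had 16 of 9864 assigned peaks in mouse and 64 of 15474 in pig. The median width was 2492 bp in mouse, from 301 bp to 4772 bp, and 984 bp in pig, from 278 bp to 3519 bp. At least 1 such peak was assigned to 10 of 42 mouse members, against 24.7% of coding genes, and to 17 of 41 pig members, against 28.8%. At least 3 were assigned to 1 of 42 in mouse, against 4.74%, and to 10 of 41 in pig, against 8.89%. The mean number per member was 0.381 in mouse, beside 0.453 over all genes, and 1.56 in pig, beside 0.749. Of the 41 genes, 16 had more distal peaks in pig, 2 had more in mouse and 22 had none in either. The same count over all same-symbol genes was not made, and the pig list held more assigned peaks over all genes.

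In pig FOXN3 (chr7:111036492-111454106) had the most, with 12 peaks, of which 9 lay inside the gene, and FOXP1 had 10, of which 8 lay inside it. Mouse Foxn3 and Foxp1 had 1 each, 91.7 kb and 341 kb from the nearest TSS and outside the gene. FOXO3 had 5 in pig, 4 of them within the gene, and 3 in mouse, the most of any mouse member, of which the peak of 4437 bp (chr10:42202294-42206730) was within the gene. FOXK1 had 5 in pig and 2 in mouse, and 2 of the pig peaks and 1 of the mouse peaks lay in the neighbouring gene Sdk1. FOXO1 had 3 in pig and 2 in mouse. FOXN4, of retina and spinal cord, had 5 in pig, 3 of them within the gene, although its start lacked H3K27ac, and none in mouse.

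Distal peaks were also assigned to pig members without H3K27ac at their start. FOXA2 had 4, from 18.7 kb to 85.8 kb away, FOXL1 4, from 96.2 kb to 272 kb away, FOXD2 3, from 159 kb to 209 kb away, and FOXC1 3, from 144 kb to 220 kb away and inside the neighbouring gene GMDS. In mouse Foxa2, Foxl1 and Foxc1 had none and Foxd2 had 1, of 4772 bp and 126 kb away. The 10 members with at least 3 peaks held 54 of the 64 pig peaks, and 30 of the 64 lay inside the gene they were assigned to, as did 5 of 16 in mouse. These shares were not computed over the distal peaks of all genes, so they are not set apart from them.

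**Figure D5:**
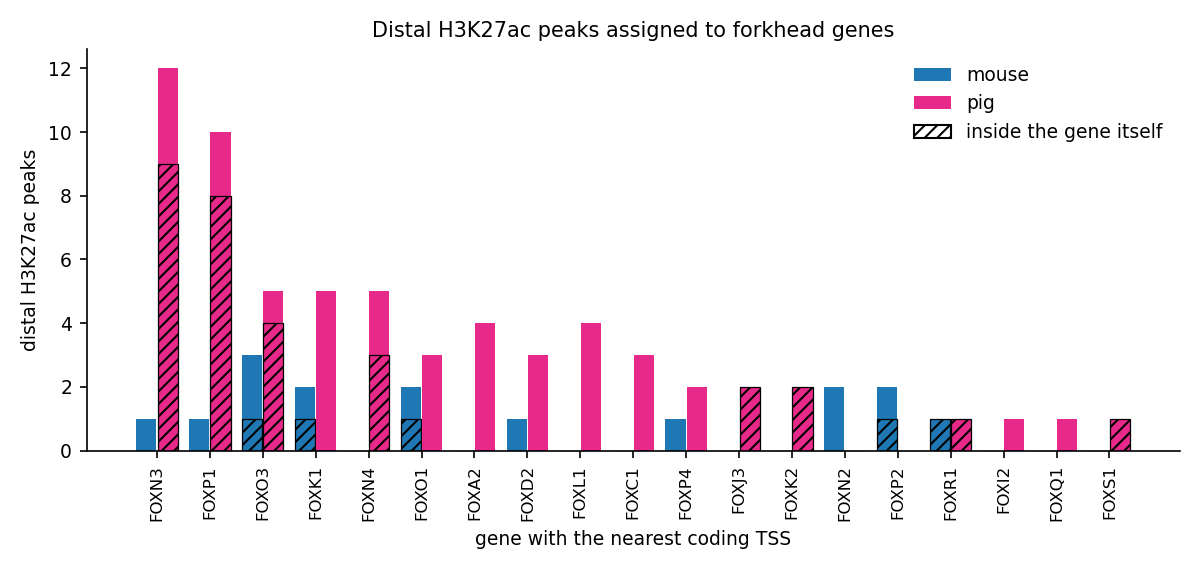
Bars give the number of distal H3K27ac peaks assigned to each forkhead gene that had 1 or more in mouse (blue) or pig (pink), and hatching the part of them inside the gene itself. Pig bars reach 12 at FOXN3 and 10 at FOXP1, largely hatched, while no mouse bar is above 3.

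Territory here means the span from the coding TSS on a gene's left to the one on its right, and long territories leave room for more peaks. Among genes with a territory of 500 kb or more, 0 of 8 mouse members had at least 3 distal peaks, against 24.7% of such genes, and 7 of 9 pig members, against 37.8%. Distal H3K4me1 peaks without H3K27ac were more frequent: 10 or more were assigned to 10 of 42 mouse members, against 5.36% of genes, and to 13 of 41 pig members, against 9.90%. Foxp1 had 35 in mouse and 54 in pig, Foxc1 17 and 22, Foxf1 13 and 23, Foxk1 19 and 38, and Foxn3 16 and 44. H3K4me1 overlapped 10 of 16 distal H3K27ac peaks of members in mouse, against 48.3% of such peaks, and 43 of 64 in pig, against 72.5%.

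Distal peaks were compared between species by sequence. Of the 16 mouse peaks 10 matched the pig locus of the same gene, against 49.9% of all assigned peaks of same-symbol genes, and of the 64 pig peaks 24 matched the mouse locus, against 33.0%. The matched place carried H3K27ac for 3 of 10 mouse peaks, against 9.86% of matched peaks, and for 2 of 24 pig peaks, against 14.2%. It carried H3K4me1 alone for 3 of 10, against 33.9%, and 7 of 24, against 31.8%, and no mark for 4 of 10, against 55.8%, and 14 of 24, against 51.8%. Matches lay in coding exons for 1 of 10 mouse and 7 of 24 pig peaks, a share that was not computed over all matched peaks.

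The 3 mouse peaks whose match had H3K27ac were assigned to Foxd2, Foxp4 and Foxr1. The Foxd2 peak (chr4:114777730-114782501), in no coding gene, matched at 85.7% over 763 bp a place 127 kb from pig FOXD2, close to the 126 kb in mouse. That place had all 3 marks, so it was not counted as distal in pig. The Foxp4 peak (chr17:47940501-47944958), 15.9 kb from the mouse start, matched at 75.6% over 659 bp a pig place that also had all 3 marks. It lay 34.3 kb from the annotated pig start and 16.1 kb from the place that matched the mouse start. The Foxr1 peak (chr9:44434268-44437016) and the pig FOXR1 peak (chr9:46217452-46219833) matched each other at 84.2% over 322 bp in a coding exon, so both genes had H3K27ac and H3K4me1 inside the gene and no mark at the start. The second pig peak with H3K27ac at its match was of FOXP4 (chr7:36675202-36678395), whose mouse place 64.3 kb from Foxp4 had all 3 marks.

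The forkhead core heptamer TGTTTAC, searched on both strands (also as GTAAACA), was counted as a description of sequence and not of binding. It was found in the 300 bases from 250 before to 50 after the 5′ end of 1 of 42 mouse members (Foxo4), against 3.19% of coding genes. In pig it was found at 4 of 41 (FOXF1, FOXO3, FOXO4 and FOXP2), against 2.68%. It was found in 6 of 16 distal peaks of members in mouse, against 32.6% of all, and in 8 of 64 in pig, against 8.90%, where peaks were narrower. Foxo4 held it in both species.

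Genes known to work with the forkhead factors were described from lists of 3 to 12 genes. Of 12 regulators of FOXO (insulin receptor, PI3 kinase and AKT pathway genes) 11 were active in mouse and 9 in pig, and of 12 FOXO target genes 12 and 10, Cdkn1a and Klf2 lacking H3K27ac in pig. Of 12 mitotic targets of FOXM1 10 were active in mouse (Bub1b and Nek2 were not) and 11 in pig (CDC20 was not). Smad2, Smad3 and Smad4, whose products bind FOXH1, were active in both species, while Foxh1 was in neither. Of 5 partners of FOXP and FOXK proteins 5 were active in mouse and 4 in pig, without CTBP1. Beside these stand 41.6% of all coding genes in mouse and 46.7% in pig, and 52.1% and 55.6% of the same-symbol genes.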

How the data were processed

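Peak positions were used as deposited by the authors, with chromosome, start and end and no signal, score or p-value. Per the labels' design text, reads of 50 bp were aligned to GRCm38 or Sscrofa11.1 and broad peaks were called at an IDR below 0.01. The tools named in the submitters' processing notes include Bowtie2 2.3.5, Trimmomatic 0.39 and SAMtools 1.9, while for the peak caller no name is given in the sources used here.

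Peaks were placed on RefSeq annotations of the same builds with Python 3.11.15 and numpy 2.4.6, and 5′ ends and distal peaks were searched in the other species with blastn 2.17.0 (E value 1e-10, within 600 kb of the gene of the same symbol). The counting was tested on simulated peaks. Members, lists and alternatives were chosen with earlier results of these data known. No test was made, since each list is 1 consensus per group, and counts stand beside the share of all genes where that share was computed. Named in full were members active in both species, members whose state differed, members with 3 or more distal peaks, and the 5 widest H3K4me3 peaks per species. Mouse promoters came from the RefSeq table for GRCm38, which matched 27 of 42 members, without Foxb1, Foxc2, Foxe1, Foxf1, Foxh1, Foxj1, Foxk1, Foxl1, Foxm1, Foxn2, Foxo4, Foxo6, Foxp2, Foxq1 and Foxs1. Some genes that fit the naming rule or a list of related genes are not reported here.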

Additional observations from a re-analysis of the deposited data

How the results depend on the processing

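Alternatives changed the window around a TSS, the starts counted, the overlap required, the width of the peaks used and the distance limit, and 2 kinds were added after the data were seen: leaving out peaks at another coding gene's TSS, and reading the state at matching sequence. Over 6 alternatives 29 of 42 mouse and 31 of 41 pig members kept their state in each. With the wider 50% of peaks, distal peaks fell from 16 to 7 in mouse and from 64 to 25 in pig. Active mouse members fell from 15 to 8, while the share over all mouse coding genes fell from 41.6% to 24.9%. Unmarked mouse members rose from 7 to 11, and the share over all genes rose from 28.7% to 43.2%. Where a peak had to cover the TSS itself, 11 mouse and 8 pig members were unmarked, in place of 7 and 5. Of all coding genes 30.8% and 29.0% then were. Without peaks at another coding gene's TSS, 11 mouse and 12 pig members were unmarked, against 39.6% and 36.8% of all coding genes. The median H3K4me3 width in pig was 2248 bp at 5′ ends alone and 2352 bp with a window of 2.5 kb, in place of 2324 bp. The other 52 values computed under an alternative stayed within 1.5 times the reported count or within the limit set for widths. The same state in both species was found for 24 to 31 of 41 members at annotated starts, for 32 of the 39 matched from mouse to pig and for 29 of the 36 matched from pig to mouse. No paired analysis was possible because each group is 1 consensus list without replicate values, and for the same reason no replicate could be left out. Depth is unknown, so the absence of a peak is not absence of the mark.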
